A study of Mus musculus with 6 samples.

Results

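The receptors that carry blood cells to bone marrow and hold them there were followed in AE9a leukemia cells from the central and the endosteal bone marrow. The set was chosen by name and comprises 10 genes, namely Cxcr4, Itga4, Itga5, Itgb1, Itgal, Itgb2, Itgam, Cd44, Selplg and Cd47. Each name had a single row among the 54532 genes of the count table. The question was whether leukemia cells at the endosteum differ in these receptors from leukemia cells in the marrow cavity.

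AE9a is a truncated splice form of the AML1-ETO fusion of t(8;21) acute myeloid leukemia, which joins RUNX1 to RUNX1T1. The leukemia was started by a retrovirus carrying AE9a in c-Kit+ marrow progenitors, and the libraries come from the third transplant generation in young adult female C57BL/6 mice, so that all groups share the virus, the strain and the serial transplantation. CBM cells were flushed from femurs and tibias, and EBM cells were those freed when the flushed bones were digested with collagenase I. Cells of both regions were held in IMDM medium with serum around the sort. There were 3 CBM libraries and 3 EBM libraries, each treated as a separate sample. Region and enzyme digestion cannot be told apart in this design, since the CBM cells were not digested. The labels name neither the animals nor any pooling, so p-values measure the spread between these libraries, which may be technical.

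Homing to marrow runs in steps. Selectins on the vessel wall catch glycan-carrying ligands such as PSGL-1 and CD44, the chemokine CXCL12 signals through CXCR4, and integrins, each a pair of an alpha and a beta chain, are switched to a binding state and grip VCAM-1, fibronectin or ICAM-1. CD44 then holds hyaluronan in the niche, and CD47 signals through SIRP-alpha on macrophages to prevent engulfment.

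Total counts on genes ran from 16436526 to 19462964 per library. In CPM (library-scaled counts after TMM normalization) 3 counts correspond to between 0.149 and 0.193, and this floor covers counting error only because reads copied by PCR are not independent molecules. The first principal component of log2 CPM held 53.0% of the variance and ran across both regions, with CBM replicate 1 and EBM replicate 1 at one end and CBM replicate 2 and EBM replicate 3 at the other. The second held 19.7% and separated CBM from EBM. Kit, the stem cell factor receptor, had between 3046 and 4513 counts, and Gata2, a progenitor transcription factor, between 13297 and 18279, whereas Flt3 and Cd33 had at most 16 and 26. Among the other progenitor markers, Myb had 4851 to 6200 counts, Runx1t1 350 to 743, Mpo 29 to 643 and Cd34 19 to 297. The 9 mature neutrophil markers summed to between 3.37 and 228 CPM, the 6 osteoblast markers to at most 0.779 with Alpl and Sp7 at 0 in every library, and the 5 stromal markers to at most 1.0. The 7 erythroid markers summed to far more, between 2169 and 5644 CPM, and were highest in CBM replicate 2. The 5 mast cell and basophil markers summed to between 666 and 1384 CPM. The part of erythroid or mast cell transcripts in the receptor values was not tested. Of 15 genes of the tissue dissociation response, 10 were higher in EBM and 5 lower, their summed level ran from 5425 to 11321 CPM in CBM and from 9348 to 11128 in EBM. Their median log2 fold change (EBM over CBM) was 0.38. Of the 15, 4 had regions that did not overlap, against 15.1% of all genes tested. An unadjusted p under 0.05 by edgeR was found for 4 of the 15, 3 higher in EBM and 1 lower, against 7.91% of all genes tested. The heat shock gene Hspa1a had the largest change, at 4.40. Its adjusted p of 0.108 by edgeR was lower than that of any receptor or listed adhesion gene. The part of this response in the results below was not tested.

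No receptor of the set was called different between the regions. Of the 10 genes, 9 passed the filter on low counts and Itgam did not. By the quasi-likelihood test of edgeR, adjusted over 13352 genes by the Benjamini-Hochberg method, 0 of the 9 had an adjusted p under 0.05, against 0% of all genes tested. At an unadjusted p under 0.05 there were 2 of the 9, Cd44 and Itgb2, against 7.91% of all genes tested, and these were also the 2 genes whose CBM and EBM libraries did not overlap, against 15.1% of all genes tested. Cd44 was higher in every EBM library than in any CBM library, as were 7.47% of all genes tested, and Itgb2 lower, as were 7.65%. Log2 fold changes (EBM over CBM) were above 0 for 5 of the 9 and below 0 for 4, where 49.6% of all genes tested were below 0, and their median was 0.12 beside 0.0017 over all genes tested. DESeq2 called 0 of the receptors, against 1.39% of the 12619 genes to which it gave an adjusted p, and 1 receptor had an unadjusted p under 0.05 there.

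**Figure D1:**
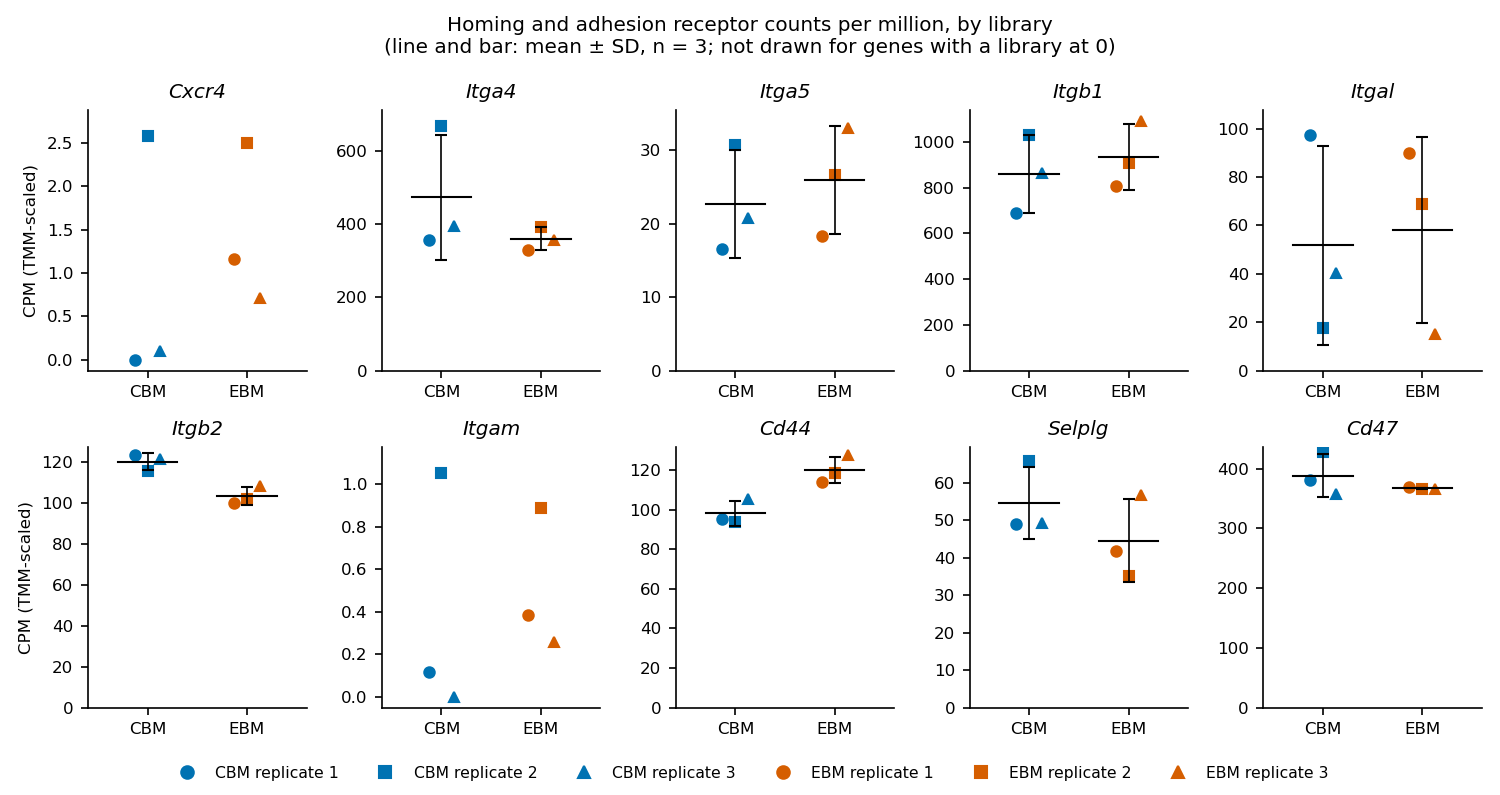
CPM (TMM-scaled counts) of each receptor in the 3 CBM libraries (blue) and the 3 EBM libraries (orange), with marker shape giving the replicate number and lines and bars giving the mean ± SD. Each panel has its own vertical axis, and no mean is drawn for Cxcr4 and Itgam, which had a library at 0. Cd44 and Itgb2 are the panels in which the regions do not overlap, and Itgal spreads from 15.3 to 97.5 CPM within the 6 libraries.

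The receptors spanned a wide range of levels. In TPM (transcript abundance, counts divided by the deposited gene length and scaled within a library) Itgb1 had the highest mean level of the 10 over the 6 libraries at 670 ± 96.3 (SD, n = 6), at the 98.5th percentile of the genes tested. Cd47 followed at 184 ± 16.4 TPM, Itgb2 at 112 ± 14.4 and Itga4 at 91.4 ± 29.1. Below them stood Cd44 at 49.0 ± 4.33 TPM, Selplg at 35.5 ± 7.90, Itgal at 25.7 ± 16.8 and Itga5 at 14.98 ± 3.84. Cxcr4 averaged 1.97 TPM, near the low end of the genes tested, and Itgam 0.273 TPM. The library ranges were separate between Itgb1 and Cd47, Cd47 and Itgb2, Itga4 and Cd44, and Itga5 and Cxcr4. The other neighbours in this order (Itgb2 and Itga4, Cd44 and Selplg, Selplg and Itgal, Itgal and Itga5, Cxcr4 and Itgam) had ranges that overlapped, and Selplg stood above Itgal in only 3 of 6 libraries. The deposited length of Itga4, 13978 bases, is the longest of the 10 and lowers its TPM. Together the 10 receptors made up 0.184% to 0.247% of a library's counts.

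Cxcr4 (ENSMUSG00000045382, chr1:128588199-128592293, minus strand), the CXCL12 receptor and the main retention signal for marrow progenitors, was close to the detection floor. It had 0, 49 and 2 counts in CBM replicates 1, 2 and 3 and 21, 45 and 11 counts in the EBM replicates. On the CPM scale the CBM libraries stood at 0, 2.58 and 0.099 and the EBM libraries at 1.16, 2.505 and 0.707. The highest library, CBM replicate 2, and the 2 lowest, CBM replicates 1 and 3, came from the same region, and the EBM libraries lay between them. The 0 counts of CBM replicate 1 had a 95% counting interval of up to 3.69 counts, where 3 counts correspond to 0.171 CPM in that library. The edgeR log2 fold change was 0.71 ± 1.27 (SE), with a Benjamini-Hochberg adjusted p of 0.975, and its size moved with single libraries and with the fit. It was 4.63 without CBM replicate 2 (adjusted p = 0.376), 0.069 without EBM replicate 2, 0.14 without CBM replicate 1 and 0.18 without CBM replicate 3. It was 2.63 with limma-voom and 1.53 with 1 surrogate variable, and no alternative gave an adjusted p below 0.376.

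Itgam (ENSMUSG00000030786, chr7:128062640-128118491, plus strand), the alpha M chain of Mac-1 on neutrophils and macrophages, was lower still. The CBM libraries held 2, 20 and 0 counts and the EBM libraries 7, 16 and 4, or 0.114, 1.05 and 0 CPM and 0.386, 0.891 and 0.257 CPM. CBM replicate 2 was again the highest library, followed by EBM replicate 2, and the regions overlapped. The exact two-sided permutation test on log2 CPM gave p = 0.5, where 3 libraries against 3 cannot go below 0.1. A protein-coding gene, Gm49368, overlaps Itgam on the same strand and had 0 counts in every library. How reads shared by the 2 genes were counted is not known, so the level of Itgam may be understated.

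Both genes followed the neutrophil transcripts of the libraries. The 9 mature neutrophil markers summed to 228 CPM in CBM replicate 2, 163 in EBM replicate 2, 49.4 in EBM replicate 1, 35.2 in EBM replicate 3, 8.02 in CBM replicate 1 and 3.37 in CBM replicate 3. Itgam had this library order in full, and Cxcr4 had it apart from CBM replicates 1 and 3, which held 0 and 2 of its counts. S100a8, a calprotectin subunit of neutrophils, had 39, 1084 and 12 counts in CBM and 230, 726 and 130 in EBM, and it was the tested gene whose log2 CPM was most like that of Itgam (Pearson r = 0.997 over the 6 libraries). For Cxcr4 that gene was Jchain, the joining chain of secreted antibody, with 2, 198 and 8 counts in CBM and 83, 127 and 35 in EBM (r = 0.996). Next for Cxcr4 came Lcn2 and a further antibody gene, Igha (r = 0.994 each), so that its pattern was not particular to neutrophil transcripts. The monocyte and macrophage markers, 8 genes, summed to between 1.19 and 11.02 CPM and were highest in EBM replicate 2 and CBM replicate 2. In bulk libraries, fewer cells of a type and less RNA per cell cannot be told apart, and the part of admixed mature cells in the Cxcr4 and Itgam values was not tested. These correlations rest on 6 libraries that share their depth and their composition, and they are given as a description.

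**Figure D2:**
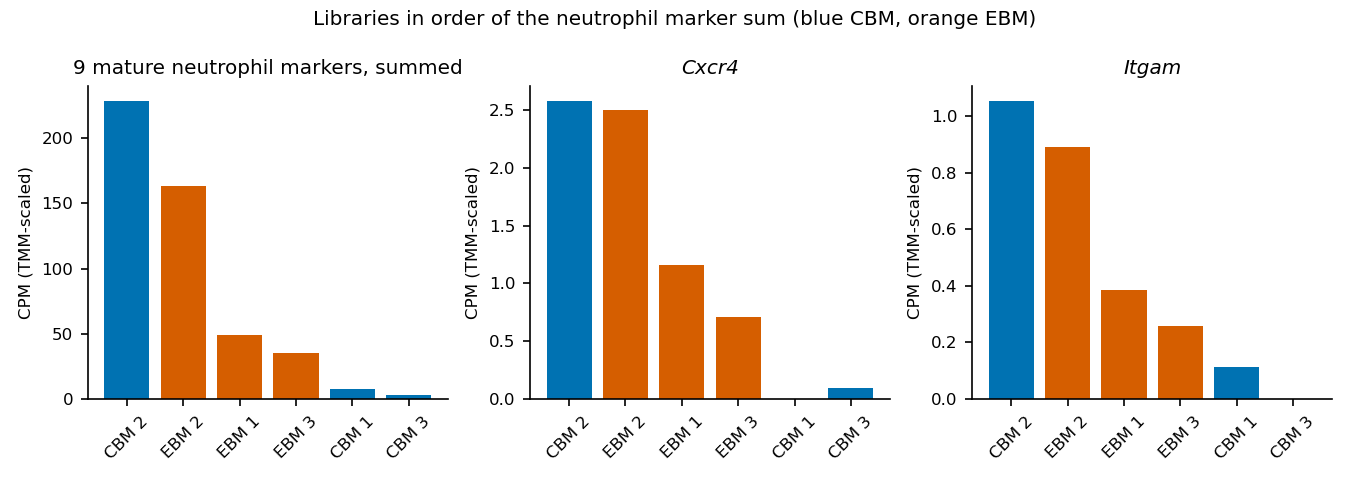
Summed CPM of 9 mature neutrophil markers (left), of Cxcr4 (centre) and of Itgam (right) in the 6 libraries, which stand in the order of the marker sum in each panel. CBM replicate 2 and EBM replicate 2 are highest in all 3 panels, while CBM replicates 1 and 3 are lowest.

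The 250 bases before the start of each gene are shown for this pair because its members moved together across the libraries. Sequences are from RefSeq on GRCm38.p6, 5′ to 3′ on the strand of the gene, and 7 of the 10 receptors had one. Capitals mark matches, on either strand, to GAGGAA (the core bound by ETS factors such as PU.1, read as TTCCTC on the other strand), GCGTG or ACGTG (hypoxia-response cores) and TGTGGN (a RUNX core).
Cxcr4 (chr1:128592300-128592549, minus strand): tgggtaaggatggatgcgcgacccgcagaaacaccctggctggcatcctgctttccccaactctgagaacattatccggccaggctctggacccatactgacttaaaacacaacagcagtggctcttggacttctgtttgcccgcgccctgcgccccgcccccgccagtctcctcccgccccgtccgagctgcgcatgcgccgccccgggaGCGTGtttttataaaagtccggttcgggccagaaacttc
Itgam (chr7:128062390-128062639, plus strand): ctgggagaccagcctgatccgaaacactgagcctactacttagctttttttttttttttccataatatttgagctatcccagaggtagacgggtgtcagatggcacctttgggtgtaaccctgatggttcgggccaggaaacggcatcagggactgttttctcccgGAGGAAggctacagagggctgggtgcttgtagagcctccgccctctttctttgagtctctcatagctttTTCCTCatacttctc
Cxcr4 had 1 match to GCGTG and none to GAGGAA in this window, and Itgam had 2 matches to GAGGAA and none to the hypoxia-response or RUNX cores. Among 32851 such windows of mouse genes, 23.3% held GAGGAA, 38.6% held GCGTG or ACGTG, and 49.2% held TGTGGN. A match is a string of letters and not a binding site, and these motifs are common.

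The alpha 4 and beta 1 chains pair to VLA-4, the receptor for VCAM-1 and fibronectin on which progenitor lodging in marrow depends, and alpha 5 with beta 1 forms VLA-5, a fibronectin receptor. Itgb1 (ENSMUSG00000025809, chr8:128685654-128733200, plus strand) had 687, 1031 and 863 CPM in CBM and 807, 906 and 1091 CPM in EBM. The regions interleaved, with CBM replicate 1 the lowest and EBM replicate 3 the highest library. The mean was 860.4 ± 172 CPM (SD, n = 3) in CBM and 935 ± 144 in EBM, a log2 fold change of 0.12 ± 0.18 (SE) with an adjusted p of 0.956 by edgeR. Its sign was set by single libraries, since it was -0.017 without CBM replicate 1 and -0.014 without EBM replicate 3.

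Itga4 (ENSMUSG00000027009, chr2:79255426-79333123, plus strand) had 355, 668 and 394 CPM in CBM and 330.3, 393 and 357 CPM in EBM. CBM replicate 2 stood well above the other 5 libraries, which overlapped between regions. The mean was 472 ± 170 CPM in CBM and 360.1 ± 31.5 in EBM (SD, n = 3), and the log2 fold change was -0.39 ± 0.24 (SE, adjusted p = 0.757, edgeR). Without CBM replicate 2 it was -0.057.

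Itga5 (ENSMUSG00000000555, chr15:103344286-103366763, minus strand) was the least abundant of the 3 chains, with 16.6, 30.7 and 20.7 CPM in CBM and 18.3, 26.6 and 33.0 CPM in EBM. The 6 libraries had the same order as in Itgb1, with replicate 1 the lowest of each region. The log2 fold change was 0.19 ± 0.29 (SE, adjusted p = 0.956, edgeR), and it was -0.023 without EBM replicate 3 and 0.48 without CBM replicate 2. Across the 6 libraries the log2 CPM of Itga5 and Itgb1 had the highest correlation of any pair among the 10 receptors (Pearson r = 0.963). Their promoter windows, shown because the chains moved together, each held 1 match to GAGGAA, and the Itgb1 window also held 1 match to TGTGGN.
Itga5 (chr15:103366792-103367041, minus strand): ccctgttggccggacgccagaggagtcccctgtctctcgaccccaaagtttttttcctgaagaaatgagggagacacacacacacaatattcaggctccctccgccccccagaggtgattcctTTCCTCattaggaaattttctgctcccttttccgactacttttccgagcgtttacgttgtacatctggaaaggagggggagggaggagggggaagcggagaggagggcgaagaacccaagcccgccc
Itgb1 (chr8:128685404-128685653, plus strand): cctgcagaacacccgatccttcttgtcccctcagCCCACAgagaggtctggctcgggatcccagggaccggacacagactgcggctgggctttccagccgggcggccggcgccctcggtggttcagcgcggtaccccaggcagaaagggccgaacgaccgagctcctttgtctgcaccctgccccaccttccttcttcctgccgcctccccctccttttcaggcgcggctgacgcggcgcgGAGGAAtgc

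The ratio of an alpha chain to its beta chain within a library needs no library size. On the scale of counts per kb, Itga4 stood at 0.151, 0.189 and 0.133 of Itgb1 in CBM and at 0.119, 0.127 and 0.0955 in EBM. All 3 EBM libraries were below all 3 CBM libraries, with a mean log2 ratio of -2.68 ± 0.26 in CBM and -3.15 ± 0.21 in EBM (SD, n = 3). The difference of -0.47 had an exact two-sided permutation p of 0.1, the smallest this design allows, and 0.5 after Benjamini-Hochberg adjustment over the 5 chain ratios computed. Leaving out any single library kept it between -0.58 and -0.33, the smallest value being that without CBM replicate 2. The ratio of Itga5 to Itgb1 ran from 0.0188 to 0.0250 with overlapping regions (log2 difference 0.073, exact permutation p = 0.9). It was -0.0027 without EBM replicate 3.

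**Figure D3:**
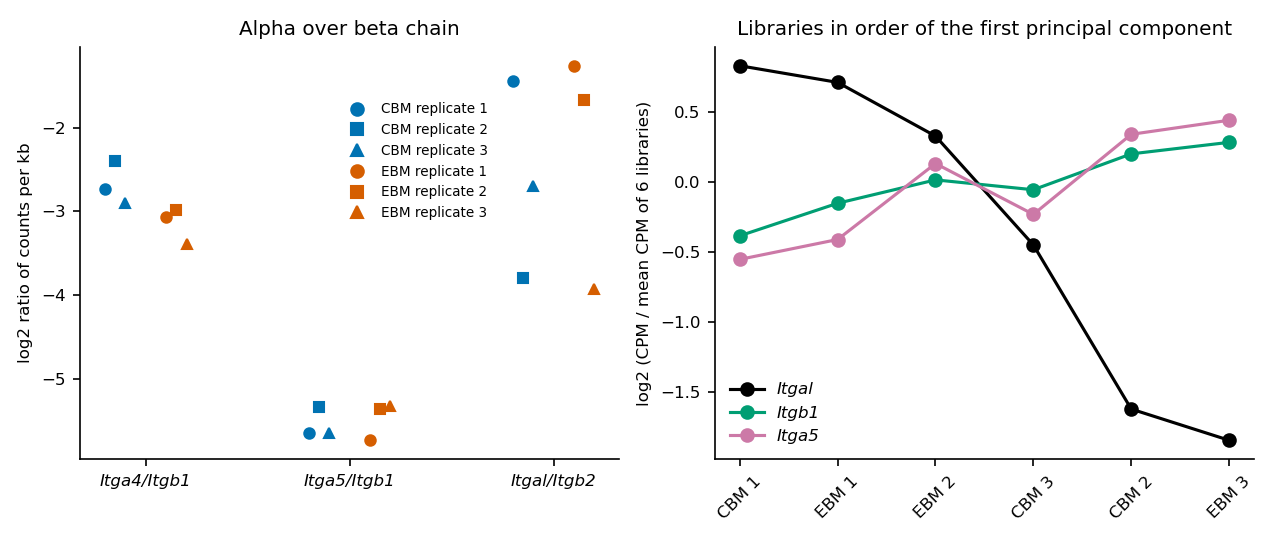
Left, log2 ratio of alpha to beta chain in counts per kb for the CBM (blue) and EBM (orange) libraries, with marker shape giving the replicate number. Right, log2 of each library's CPM over the mean of the 6 libraries for Itgal, Itgb1 and Itga5, with libraries ordered by the first principal component. The EBM libraries lie below the CBM libraries for Itga4 over Itgb1 (log2 difference -0.47), and Itgal falls along the component in both regions while Itgb1 and Itga5 are lowest at its start.

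The beta 2 chain, which pairs with alpha L to form LFA-1 and with alpha M to form Mac-1, was lower in every EBM library than in any CBM library, on the CPM and the TPM scale. Itgb2 (ENSMUSG00000000290, chr10:77530252-77565708, plus strand) had 123, 115 and 122 CPM in CBM and 99.97, 102 and 108 CPM in EBM. The lowest CBM library exceeded the highest EBM library, and the step was small beside the level. The mean was 120.0 ± 4.12 CPM in CBM and 103 ± 4.28 in EBM (SD, n = 3), so that EBM stood at 86.1% of CBM. The log2 fold change was -0.22 ± 0.082 (SE) with an unadjusted p of 0.0351 and a Benjamini-Hochberg adjusted p of 0.591 by edgeR's quasi-likelihood test, and the exact permutation p was 0.1. Of all genes tested, 3.9% had an unadjusted p under 0.05 with the lower level in EBM. Over 15 alternative settings the log2 fold change of Itgb2 ran from -0.26 to -0.19. The tested gene most like it over the 6 libraries was Slc33a1, an acetyl-CoA transporter of the endoplasmic reticulum (r = 0.992), which had 309, 288 and 337 counts in CBM and 202, 218 and 216 in EBM.

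Itgal (ENSMUSG00000030830, chr7:127296260-127335138, plus strand), the alpha L chain that binds ICAM-1, varied widely within both regions. It had 97.5, 17.8 and 40.2 CPM in CBM and 89.8, 68.9 and 15.3 CPM in EBM, a 6.38-fold range between the highest and the lowest library. Replicate 1 was the highest library of each region, and the lowest were CBM replicate 2 and EBM replicate 3. The mean was 51.9 ± 41.1 CPM in CBM and 58.0 ± 38.4 in EBM (SD, n = 3), with a log2 fold change of 0.16 ± 0.76 (SE, adjusted p = 0.989, edgeR). The sign turned to -0.24 without CBM replicate 2 and to -0.30 without EBM replicate 1. The spread of Itgal over the 6 libraries, as a coefficient of variation of CPM, was at the 96.2nd percentile of the genes tested.

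The 6 libraries had the same order in Itgal as on the first principal component. The gene most like it was Fgfr1, a fibroblast growth factor receptor, with 3259, 958 and 1865 counts in CBM and 3079, 2426 and 733 in EBM (r = 0.999). Cpa3, a mast cell protease that also marks basophil-mast progenitors, had 3938, 71 and 892 counts in CBM and 3800, 3229 and 81 in EBM, and Fcer1a, a chain of the IgE receptor, 1860, 81 and 355 and then 1775, 1375 and 54. Both were highest in CBM replicate 1 and EBM replicate 1, as Itgal was. The other 3 genes of the mast cell and basophil list did not have this order. Ms4a2, another IgE receptor chain, ran from 652 to 1051 CPM, and the basophil proteases Mcpt8 and Prss34 were highest in CBM replicate 2, at 1.21 and 4.95 CPM. Itgal was opposed to Itgb1 (r = -0.902) and Itga5 (r = -0.861) over the same 6 libraries. Relative to its beta chain, Itgal stood between 0.0658 and 0.417 of Itgb2 in counts per kb, and the log2 difference between regions was 0.36 (exact permutation p = 0.8), -0.21 without CBM replicate 2 and -0.15 without EBM replicate 1. The 2 ratios with Itgam rest on its 0 to 20 counts per library and differed between regions by 1.83 for Itgam over Itgb2 (exact permutation p = 0.4) and by -1.47 for Itgal over Itgam (exact permutation p = 0.6) on the log2 scale. The part of the split between libraries in the Itgal values was not tested.

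CD44, the hyaluronan receptor that leukemic stem cells use to lodge in marrow, was higher on the CPM scale in every EBM library than in any CBM library. Cd44 (ENSMUSG00000005087, chr2:102811141-102901665, minus strand) had 95.2, 93.6 and 105 CPM in CBM and 114, 118 and 127 CPM in EBM, from 1673 to 2120 counts and 1981 to 2127 counts. The highest CBM library, replicate 3, stayed below the lowest EBM library, replicate 1. In TPM, which carries no TMM factor, the regions overlapped, at 44.5, 43.0 and 50.2 in CBM and 49.9, 53.3 and 53.0 in EBM. The mean was 98.0 ± 6.28 CPM in CBM and 119.9 ± 6.72 in EBM (SD, n = 3), or 1.22-fold higher in EBM. The log2 fold change of 0.29 ± 0.092 (SE) had an unadjusted p of 0.0167 by edgeR's quasi-likelihood test, rank 445 of the 13352 genes, and a Benjamini-Hochberg adjusted p of 0.499. The exact permutation p was 0.1. Of all genes tested, 4.01% had an unadjusted p under 0.05 with the higher level in EBM. Over 15 alternative settings the log2 fold change ran from 0.24 to 0.35 and the adjusted p from 0.141 to 0.985.

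The gene whose pattern was most like that of Cd44 was Eif3c, a translation initiation subunit (r = 0.999), with 5561, 5995 and 6912 counts in CBM and 6716, 6827 and 6280 in EBM. The promoter window of Cd44 is shown because its transcript was the receptor with the smallest p. It held 2 matches to GAGGAA, 1 to the hypoxia-response core ACGTG and 1 to TGTGGN.
Cd44 (chr2:102901666-102901915, minus strand): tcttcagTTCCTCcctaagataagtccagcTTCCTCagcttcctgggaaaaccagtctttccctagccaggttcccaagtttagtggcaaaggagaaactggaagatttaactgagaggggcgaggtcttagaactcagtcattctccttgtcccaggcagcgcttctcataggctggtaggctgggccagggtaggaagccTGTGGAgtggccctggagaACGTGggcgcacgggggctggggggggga
Gene counts do not resolve the splice variants of CD44, and these were not analysed here.

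Selplg (ENSMUSG00000048163, chr5:113818536-113832644, minus strand) encodes PSGL-1, which rolls on P- and E-selectin once it carries the right glycans. It had 48.9, 65.7 and 49.3 CPM in CBM and 41.7, 35.1 and 56.8 CPM in EBM. EBM replicate 3 lay among the CBM libraries, while EBM replicates 1 and 2 were the 2 lowest. The mean was 54.6 ± 9.59 CPM in CBM and 44.5 ± 11.1 in EBM (SD, n = 3), with a log2 fold change of -0.30 ± 0.21 (SE, adjusted p = 0.809, edgeR). It was -0.14 without CBM replicate 2, -0.15 without EBM replicate 2 and -0.52 without EBM replicate 3.

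Cd47 (ENSMUSG00000055447, chr16:49800533-49915010, plus strand), the don't-eat-me signal, was among the steadier genes of the table. It had 381, 427 and 357 CPM in CBM and 368, 366 and 366 CPM in EBM. The EBM libraries were nearly equal and lay inside the CBM range. The mean was 388 ± 35.7 CPM in CBM and 367 ± 1.40 in EBM (SD, n = 3), and the log2 fold change was -0.081 ± 0.098 (SE, adjusted p = 0.929, edgeR). It was -0.0061 without CBM replicate 2 and -0.14 without CBM replicate 3. In TPM the EBM libraries, at 174, 178 and 165, lay below the CBM libraries, at 192, 212 and 184. Its coefficient of variation over the 6 libraries was at the 8.66th percentile of the genes tested. Cd47 was highest in CBM replicate 2, as Itga4 and Selplg were, and its log2 CPM correlated with that of Itga4 over the 6 libraries (r = 0.869).

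**Figure D4:**
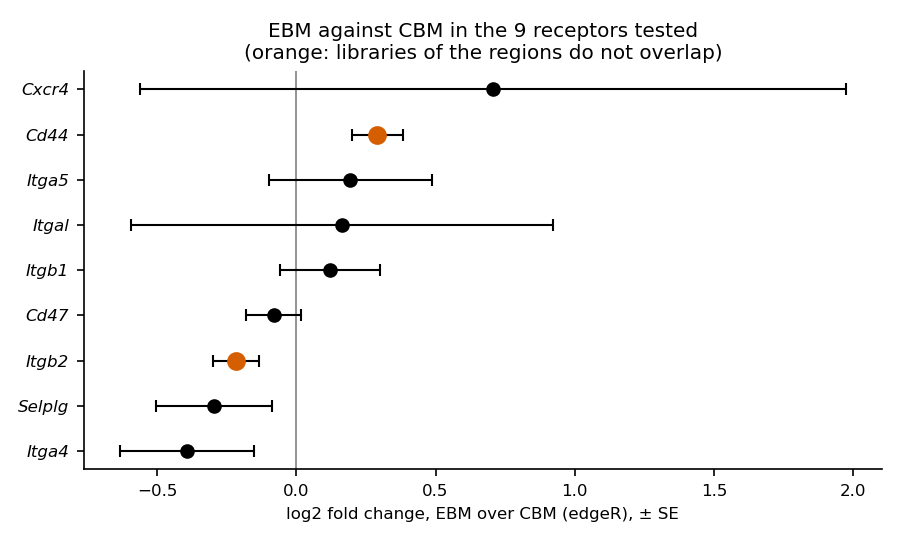
Log2 fold change (EBM over CBM, edgeR) with its SE for the 9 receptors that passed the filter on low counts. Orange points mark the genes whose regions do not overlap, Cd44 at 0.29 and Itgb2 at -0.22, and no receptor had an adjusted p under 0.05.

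The wider adhesion and homing machinery was read from 8 lists with 172 genes in the table, of which 123 were tested. Of these, 76 were higher in EBM and 47 lower, where 49.6% of all genes tested were lower. The median log2 fold change was 0.056 beside 0.0017 over all genes tested, and 0 of the 123 had an adjusted p under 0.05 by edgeR. At an unadjusted p under 0.05 there were 12 (9.76%), 6 in each direction, near the 7.91% of all genes tested, and 14 (11.4%) had regions that did not overlap, against 15.1% of all genes tested. DESeq2 called 3 of the 114 listed genes to which it gave an adjusted p, Icam1, Gcnt1 and Cd74, each higher in EBM, where it called 1.39% of all genes with an adjusted p, and 1.04% as higher in EBM.

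Among niche ligands, Icam1, which encodes the partner of LFA-1 and Mac-1 on the opposing cell, had the smallest p. It had 1889, 1482 and 1091 counts in CBM and 4338, 4858 and 3046 in EBM. Every EBM library exceeded every CBM library, and the mean was 79.9 ± 26.7 CPM in CBM and 235 ± 37.5 in EBM (SD, n = 3). The log2 fold change was 1.56 ± 0.26 (SE) with an adjusted p of 0.170 by edgeR's quasi-likelihood test and 1.7e-06 by DESeq2. Icam1 is also a target of inflammatory signalling. Of the 16 niche ligands, 6 were tested, and 5 were higher in EBM and 1 lower. Fn1 (fibronectin) had a log2 fold change of 1.82 (adjusted p = 0.776) with 141 of its counts in EBM replicate 2 and at most 38 in any other library, and Lama5, a laminin chain, -0.20. Cxcl12 averaged 0.155 CPM in CBM and 0.231 in EBM, and Vcam1 0.716 and 1.29 CPM.

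Among the enzymes that build selectin ligands on PSGL-1 and CD44, Gcnt1, which starts the core 2 branch, had 2578, 3216 and 2601 counts in CBM and 4223, 4517 and 3967 in EBM. The regions did not overlap, at 148 ± 20.2 CPM in CBM and 246 ± 11.7 in EBM (SD, n = 3). The log2 fold change was 0.73 ± 0.12 (SE) with an adjusted p of 0.170 by edgeR and 0.00018 by DESeq2. C1galt1, which makes the core 1 structure beneath that branch, was at -0.44 (adjusted p = 0.633), its chaperone C1galt1c1 at -0.093 and the sialyltransferase St3gal4 at 0.12. Of the 11 enzymes tested, 6 were higher in EBM and 5 lower, and their median log2 fold change was 0.037.

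Of the genes that carry or limit the CXCR4 signal, 25 were tested, 17 were higher in EBM and 8 lower, and the median log2 fold change was 0.082. Cd74, the invariant chain of MHC class II and a surface receptor for MIF that can pair with CXCR4, had 38, 46 and 22 counts in CBM and 98, 141 and 162 in EBM. The regions did not overlap, and the log2 fold change was 2.06 ± 0.38 (SE, adjusted p = 0.189 by edgeR, 6.6e-05 by DESeq2) at 1.89 ± 0.705 CPM in CBM and 7.89 ± 2.50 in EBM. Gnai3, an inhibitory G protein subunit, was at 0.27 (adjusted p = 0.552) and Pik3cg, the PI3 kinase under such receptors, at -0.21 (adjusted p = 0.630). Klf2, a factor that drives S1pr1, was at -1.07 (adjusted p = 0.897), with 1844 counts in CBM replicate 1 and at most 552 in any other library. Ackr3, the other CXCL12 receptor, had no count in any library.

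Of 11 CD44 linkers, proteases and splicing factors tested, 9 were lower in EBM and 2 higher, and the median log2 fold change was -0.32 beside 0.0017 over all genes tested. By edgeR 0 of the 11 had an adjusted p under 0.05. An unadjusted p under 0.05 was found for 3 of the 11, all lower in EBM, against 3.9% lower over all genes tested, and 4 of the 11 had regions that did not overlap, against 15.1%. The members were chosen with earlier results known, and nothing particular to the list is drawn from these counts. Mmp14, a membrane protease that cleaves CD44, had 179 ± 10.9 CPM in CBM and 143 ± 4.28 in EBM (SD, n = 3), a log2 fold change of -0.32 ± 0.087 (SE, adjusted p = 0.404, edgeR), and the regions did not overlap. Has3, a hyaluronan synthase, was low at 1.83 ± 0.175 and 0.833 ± 0.114 CPM, with a log2 fold change of -1.13 (adjusted p = 0.324). Ezrin (Ezr) and moesin (Msn), which tie the CD44 tail to actin, were the 2 that were higher, at 0.16 and 0.14, and radixin (Rdx) was at -0.054.

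Among the CD47 partners and phagocytosis signals, 10 of 11 genes tested were higher in EBM, where 49.6% of all genes tested were lower. The median log2 fold change was 0.13 beside 0.0017 over all genes tested, and none of the 11 had an unadjusted p under 0.05. This list too was chosen with earlier results known, and nothing particular to it is drawn from these counts. B2m, the light chain of MHC class I, had 229 ± 24.3 CPM in CBM and 301 ± 62.5 in EBM (SD, n = 3), with a log2 fold change of 0.39 (adjusted p = 0.632) and regions that did not overlap. Calr, the eat-me signal calreticulin, was at 0.50 (adjusted p = 0.644), and Qpctl, which modifies CD47 for SIRP-alpha binding, at -0.19. Sirpa itself was at 0.836 and 0.860 CPM.

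Integrin activation and focal adhesion genes held 25 tested members, 17 higher in EBM and 8 lower, and the median log2 fold change was 0.025. Rap1b, the small GTPase that switches integrins on, was at 0.40 ± 0.17 (SE, adjusted p = 0.627), Skap2, an adaptor in that step, at 0.15, the scaffold Lims1 at -0.25 and focal adhesion kinase (Ptk2) at -0.30 with at most 16 counts per library. Of the other integrin subunits, 11 of 20 were tested, 4 higher and 7 lower, none with an unadjusted p under 0.05. Itga9 was at 0.25, Itgae at 0.24, Itgav at -0.19 and Itga10 at -0.27. Itgb7, named here after its values were seen, was abundant at 455 ± 17.7 TPM (SD, n = 6), a level below Itgb1 and above Itgb2 on the same scale. This beta 7 chain also pairs with alpha 4, which makes the gut homing receptor LPAM-1, and its TPM was 462, 482 and 463 in CBM and 448, 435 and 438 in EBM. Between regions its CPM overlapped, at 404, 429 and 397 in CBM and 419, 395 and 429.7 in EBM, with a log2 fold change of 0.016 ± 0.087 (SE, adjusted p = 0.989, edgeR).

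Other receptors of marrow retention and egress had 23 tested members, 15 higher in EBM and 8 lower, and the median log2 fold change was 0.19. S1pr4, a sphingosine phosphate receptor, was at -0.36 ± 0.15 (SE, adjusted p = 0.599, edgeR) and Ptger4, a prostaglandin E2 receptor, at -0.60 (adjusted p = 0.596). The tetraspanin Cd82 was at 0.21 (adjusted p = 0.611) and Adgrg1, the adhesion GPCR known as GPR56, at 0.19 (adjusted p = 0.686), each with regions that did not overlap in CPM. In TPM the regions of Adgrg1 overlapped, at 313.5, 289.6 and 290.7 in CBM and 323.5, 343.4 and 281.0 in EBM. S1pr1, the egress receptor, averaged 9.70 CPM in CBM and 5.24 in EBM (adjusted p = 0.757).

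**Figure D5:**
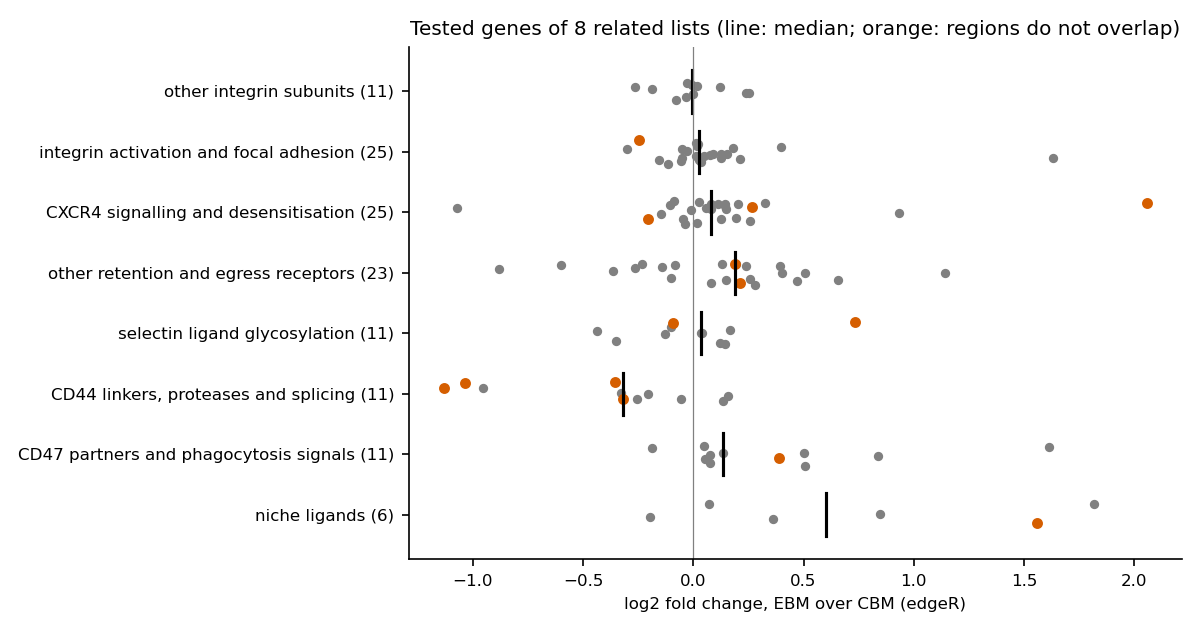
Log2 fold change (EBM over CBM, edgeR) of the tested genes of 8 lists of the adhesion and homing machinery, with the number tested in brackets, a black line at the median and orange points where the regions do not overlap. The list of CD44 linkers has the lowest median at -0.32, and Icam1 (1.56) and Cd74 (2.06) are the orange points farthest to the right.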

How the data were processed

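RNA-seq was done on 3 CBM and 3 EBM libraries of AE9a leukemia cells, prepared from rRNA-depleted RNA with a directional kit and sequenced as paired-end reads. The authors deposited raw counts per gene without normalization, in a table of 54532 genes with a gene length for each. Per the submitters' processing notes, the tools and builds named are HISAT2 2.0.5 and mm10. The counting tool and its use of strand are not given in the sources used here. Of the identifiers, 54409 are in GENCODE M21 and 53499 of them (98.3%) have the same coordinates there, including all 10 receptors. Antisense partners of Itga4 and Cd44 had few counts, Cerkl at most 6 and Gm23731 at most 1 per library. On the same strand, the protein-coding gene Gm49368 overlaps Itgam and the microRNA gene Mir6963 overlaps Itga5, each with 0 counts in every library. How reads shared by overlapping genes were counted is not given either.

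Groups were taken from the sample titles. Genes were filtered by filterByExpr, normalized by TMM and tested with the quasi-likelihood F-test of edgeR 4.0.16 with Benjamini-Hochberg adjustment over all 13352 tested genes at 0.05, without a block, after the unpaired comparison the study names. The SE of a log2 fold change is its size divided by the square root of F. Single values were tested on log2 CPM (prior count 2) by exact two-sided permutation over 20 relabellings, for which the smallest p is 0.1. Chain ratios used counts per kb with 0.5 counts added. No 2 libraries of a group agreed within sampling noise, with a chi-square per degree of freedom of at least 13.1 over genes. The fits were run on simulated counts with 200 changed genes. The simulation held no split between libraries like the one seen here, and nothing about the results is drawn from it. Genes named outside the receptors are the 2 with the smallest p in each direction of each list and, for each receptor, the 1 tested gene with the highest Pearson r, and any other gene named was picked with its values in view. The receptors and the lists were chosen with earlier results of these data known. One listed symbol, Cd99, was not found in the table.

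Alternatives were DESeq2 1.42.0, limma-voom (limma 3.58.1), RLE and upper-quartile factors, no filter on low counts, at least 1 CPM in 3 libraries, a replicate block, thinning, and each library left out. A fit with 1 surrogate variable (sva 3.50.0) was added after seeing the data.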

Additional observations from a re-analysis of the deposited data

How the results depend on the processing

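No receptor was called under any of the 15 alternatives, and between 1 and 3 had an unadjusted p under 0.05. The count of all genes called, 0 in the fit reported, was 175 with DESeq2, 40 without a filter on low counts and 276 with 1 surrogate variable, of which 131, 38 and 200 were higher in EBM, and 0 under each of the other 12 alternatives. Over the related lists, DESeq2 called 3 genes, the fit without a filter 1 (Icam1) and the fit with 1 surrogate variable 4 (Icam1, Gcnt1, Cd74 and Src), and the other 12 alternatives 0. The cause was not tested. The log2 fold change of Itgal was -0.011 with 1 surrogate variable. With each library left out in turn, the log2 fold change ran from -0.023 to 0.48 for Itga5, from -0.017 to 0.27 for Itgb1 and from -0.30 to 0.999 for Itgal. The log2 ratio difference then ran from -0.0027 to 0.21 for Itga5 over Itgb1 and from -0.21 to 1.18 for Itgal over Itgb2. Itgam passed the filter on low counts in only 4 of the fits with a library left out. Its log2 fold change in those 4 ran from -0.18 to 0.70. Cxcr4, Itga4, Itgb2, Cd44, Selplg and Cd47 kept the sign of their fold change under all 15 alternatives.

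Same-numbered libraries had deviations from their region means that correlated at 0.676, -0.204 and 0.203, and different-numbered ones at between -0.673 and 0.51. These values cannot show whether libraries share an animal, since the split of the first principal component enters all of them. Whether the replicate numbers of the labels pair the libraries is therefore not known. With the number as a replicate block, 0 genes and 0 receptors were called, 2 receptors had an unadjusted p under 0.05, and the difference of the Itga4 to Itgb1 ratio had a sign-flip p of 0.25, the smallest possible with 3 pairs. With 3 libraries per region no exact permutation test could pass 0.05.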
